A study of Rattus norvegicus with 4 samples.

Results

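NF-kB is a dimeric transcription factor built from Rel family subunits, which is held in the cytoplasm by IkB proteins until the IKK kinase marks them for destruction. The freed dimer enters the nucleus and switches on cytokine, chemokine and survival genes, and among its targets are the genes of several of its own subunits and inhibitors. Alveolar macrophages use this pathway to respond to microbes and to inhaled particles. The genes described here are 10 members of that core, namely the subunit genes Rela, Rel, Relb, Nfkb1 and Nfkb2, the inhibitor genes Nfkbia, Nfkbib, Nfkbie and Nfkbiz, and Ikbkb, the gene of a catalytic subunit of IKK. They were chosen by name, through the RefSeq accession of each gene probe, out of 16581 genes that could be named on the array. Of the 10 members, 7 were measured, by 8 probes with 1 spot each. Rel, Relb and Nfkbiz had no probe that could be matched by accession and are given no level.

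The samples were 4 cultures of NR8383 cells, a line derived from rat lung lavage that stands in for the alveolar macrophage, labelled as 20 passages. All had been exposed for 4 h to NRCWE021, a zinc iron oxide (ZnFe2O4), at 17 µg/mL. The design describes them as biological replicates, set against cells without the particle. Arrays of cells without the particle were not analysed here, so the values describe exposed cells only, and no difference was tested.

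Each 1-colour array gave a background-subtracted processed signal in intensity units for every spot. The arrays were uneven, since the median processed signal of gene spots lay between 7.37 and 542 and the share of spots well above background between 41.6% and 89.5%, with replicates 2 and 3 at the high end of both. The dimmest spike-in probe, a control RNA that does not come from the cells, read 3.83 on replicate 1 and 3.92 on replicate 4, but 537 on replicate 2 and 109 on replicate 3. The line was checked against cell type markers. Of 13 measured macrophage markers, 11 were well above background on all 4 arrays, against 42.6% of all named genes. Cd68, Msr1 and Mrc1 were among them, while the exceptions were Adgre1, on no array, and Marco, on replicates 2 and 3. Of 37 measured markers of epithelial, lymphoid, neutrophil, fibroblast and endothelial cells, 11 were well above background on replicates 1 and 4, against 46.0% of all named genes. These were Foxj1, Cd4, Lck, Nkg7, Pax5, S100a8, Camp, Dcn, Cdh5, Pecam1 and the endothelial gene Vwf, which was bright, with a level of 5.36 on replicate 1 and 5.49 on replicate 4 in log2 units over the 75th percentile of the array. The part of other cells in the members' signal was not tested.

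Matches to the NF-kB consensus site in the promoters of these genes are shown first. RefSeq promoters of the GRCr8 build, from 250 bases before to 50 bases after the transcript start, were found for 8 members, all but Relb and Ikbkb. They were searched on both strands for the κB decamer, the consensus site that NF-kB dimers bind, with overlapping matches taken as 1 site. A match was found in 6 of the 8 promoters and in 2515 of 33469 promoters of the table (7.51%). The mean GC content was 67.1% for the members and 52.7% for the table. Rela and Nfkbib had no match in this window. A match describes letters only, and binding was not measured.

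The promoter of Nfkbia, whose induction by NF-kB is the textbook feedback loop of the pathway, is shown with its κB match in capitals, over the 250 bases before the start (chr6:78597073-78597322, minus strand, read along the gene).
Nfkbia: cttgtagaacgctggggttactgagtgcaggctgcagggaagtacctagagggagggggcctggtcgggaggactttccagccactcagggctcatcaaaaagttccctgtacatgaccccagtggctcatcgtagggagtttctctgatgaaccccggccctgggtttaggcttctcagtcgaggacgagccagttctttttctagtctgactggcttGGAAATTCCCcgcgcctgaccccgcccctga

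The match of Nfkbia lies 31 to 22 bases before the start, on the strand opposite to the gene. The other matches are shown to compare their letters, each with its flanks in lower case and read along the gene. That of Nfkb1 (chr2:226805440-226805469, minus strand) lies at bases 4 to 13 after the start, and that of Nfkb2 (chr1:255108344-255108373, plus strand) lies 20 to 11 bases before it. The match of Nfkbie (chr9:22948017-22948046, minus strand) lies 164 to 155 bases before the start, and that of Nfkbiz (chr11:58251698-58251727, plus strand) 13 to 4 bases before it. Rel has 2 sites, at chr14:101922138-101922166 and chr14:101922001-101922029 on the minus strand. For Nfkbia, Nfkb1, Nfkb2 and Rel the RefSeq gene begins 235, 435, 2364 and 386 bases upstream of the transcript start used by the table. For Nfkbiz it begins 1 base upstream.
Nfkb1: cgacgtcagtGGGAATTTCCagccaggaag
Nfkb2: tggtattttcGGGACTTTCCtaagagcact
Nfkbie: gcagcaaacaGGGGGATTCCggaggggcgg
Nfkbiz: tttttggcctGGGAATTTCCagcgtgtgga
Rel, distal: cgcgcccccGGGAGCTCCCCgcgcgagcg
Rel, proximal: gtaggcagcGGGAAATCCCCccccgttcc
The capitals of Nfkb1 and Nfkbiz are the same 10 letters, and those of Nfkbia are the same letters on the other strand.

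All 7 measured members were detected in the exposed macrophages. The scanner software marked each as well above background, here called detected, on 4 of 4 arrays, against 42.6% of 16526 named genes with a value on every array. On replicate 1 alone 52.5% of genes passed, on replicate 2 91.8%, on replicate 3 75.7% and on replicate 4 46.4%, so the flag was given to fewest genes on replicates 1 and 4. The share of all genes detected on both of these was 46.0%. A second threshold, 3 SD above the dimmest spike-in probe of the same array, was met on all 4 arrays by 2 of 7 members, Nfkbia and Nfkbie, against 15.4% of all genes. On replicates 1 and 4 each member passed it, where 60.4% and 53.5% of genes did, so it was looser than the flag there. It was stricter than the flag on replicates 2 and 3. On replicate 2 Rela, Nfkb1, Nfkb2, Nfkbib and Ikbkb did not pass, where 22.9% of genes did, and on replicate 3 Nfkb1, Nfkbib and Ikbkb did not, where 20.4% did.

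**Figure D1:**
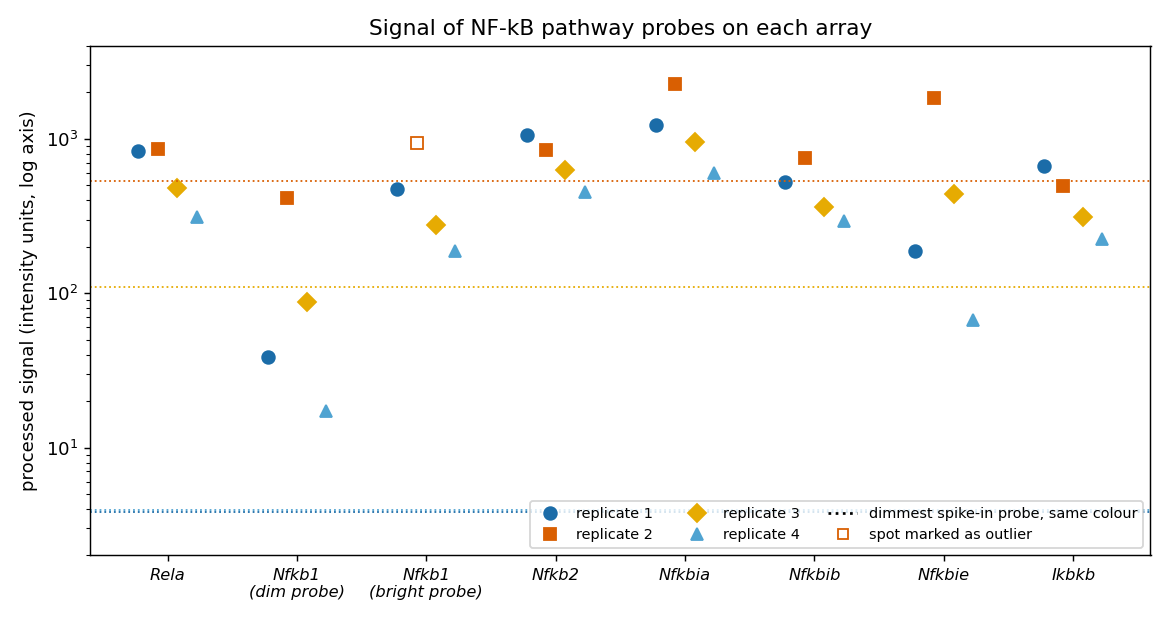
Processed signal (intensity units, log axis) of the 8 probes of the 7 measured members, 1 point per replicate array, with the dimmest spike-in probe of each array as a dotted line. On replicates 1 and 4 every member lies above that line, while on replicate 2 Ikbkb (493) and the dim probe of Nfkb1 (413) lie below it at 537. The open square is a spot that the scanner software marked as an outlier.

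Rela encodes the subunit that carries the main transactivation domain of the classical NF-kB dimer. Its processed signal was 830, 861, 483 and 311 on replicates 1 to 4. After the 75th percentile of the array was subtracted on the log2 scale, its level was 3.23, 0.02, 1.13 and 2.78, or 1.79 ± 1.48 (SD, n = 4). Replicates 1 and 4 lay above replicates 2 and 3, whereas the signal itself was about the same on replicates 1 and 2. On replicates 1, 3 and 4, 89.7%, 89.6% and 87.9% of gene probes of the array were dimmer than that of Rela, and on replicate 2 75.5% were; this share is called the position on the array.

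Nfkb2 encodes the precursor of the alternative pathway, which acts as an inhibitor through its ankyrin repeats until it is processed to a subunit. Its processed signal was 1064, 847, 630 and 450 on replicates 1 to 4, with levels of 3.58, -0.01, 1.52 and 3.31 and a mean of 2.10 ± 1.68 (SD, n = 4). The probe kept the same order of arrays as Rela, high on replicates 1 and 4 and lowest on replicate 2. Its position was 91.0%, 91.6% and 89.9% on replicates 1, 3 and 4 and 74.9% on replicate 2.

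Nfkb1 encodes the precursor of the subunit that pairs with the Rela product, and its 2 probes, which cite the same transcript, disagreed. One probe had a processed signal of 38.6, 413, 87.3 and 17.2 on replicates 1 to 4, and a level of -1.24 ± 0.16 (SD, n = 4), from -1.39 to -1.04, with an SD of 0.10 without replicate 2. The other had 470, 276 and 187 on replicates 1, 3 and 4, and its only spot on replicate 2, at 947, was marked as an outlier by the scanner software. The second probe was the brighter on all 4 arrays, and it had a level of 2.41, 0.33 and 2.05 on replicates 1, 3 and 4, or 1.59 ± 1.11 (SD, n = 3).

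The rule that a probe needs a value on every array therefore picks the dimmer probe for Nfkb1. With outlier spots kept, the brighter probe stands for the gene and the level becomes 1.23 with an SD of 1.16. Whether Nfkb1 lies above or below the 75th percentile of the arrays thus depends on which probe is used, and 1 spot decides that choice. The brighter probe lay above it on replicates 1, 3 and 4, and the dimmer one below it on all 4 arrays. Both probes were well above background on all 4 arrays. On replicates 2 and 3 the dim probe stood at -0.38 and -0.32 log2 units relative to the dimmest spike-in, so its values there cannot be told from such a signal.

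Nfkbia encodes IkB alpha, the inhibitor that is degraded first and resynthesised within the feedback loop. Its processed signal was 1234, 2258, 960 and 599 on replicates 1 to 4. The levels were 3.80, 1.41, 2.13 and 3.73, with a mean of 2.76 ± 1.19 (SD, n = 4). Its position on the array lay between 91.3% and 94.5%, and was highest on replicate 2. It lay 2.07 log2 units above the dimmest spike-in probe on replicate 2 and 8.33 above it on replicate 1.

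Nfkbib encodes IkB beta, an inhibitor that is degraded more slowly. Its processed signal was 528, 752, 364 and 293, with levels of 2.57, -0.18, 0.73 and 2.70 on replicates 1 to 4 and a mean of 1.45 ± 1.41 (SD, n = 4). Replicates 1 and 4 were again high and replicate 2 lowest, and the position on the array was 70.6% on replicate 2 against 86.4% to 87.5% on the others.

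Nfkbie encodes IkB epsilon, a further inhibitor that NF-kB induces. The RefSeq table gives Slc35b2, the symbol of the gene next to it, as a synonym, and the probe was taken as Nfkbie by its accession. Its processed signal was 188, 1840, 437 and 66.7 on replicates 1 to 4. The array with the highest signal was replicate 2, as for Rela, Nfkbia, Nfkbib and both probes of Nfkb1. Its level was 1.08, 1.11, 0.99 and 0.56, or 0.94 ± 0.26 (SD, n = 4), with no gap between replicates 1 and 4 and the others, and the SD was 0.06 without replicate 4. Its position was 80.2%, 92.6%, 88.7% and 77.7% on replicates 1 to 4, so replicate 2 was its highest array where it was the lowest of Rela. On replicate 2 the probe lay 1.78 log2 units above the dimmest spike-in.

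Ikbkb encodes the IKK subunit that phosphorylates IkB proteins in the classical pathway. Its processed signal was 669, 493, 313 and 226 on replicates 1 to 4, and its level was 2.91, -0.79, 0.51 and 2.32, with a mean of 1.24 ± 1.69 (SD, n = 4). Its position had the widest range of all members, at 53.9% on replicate 2 against 88.5%, 83.9% and 85.9% on replicates 1, 3 and 4. On that array it stood at -0.12 log2 units relative to the dimmest spike-in.

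**Figure D2:**
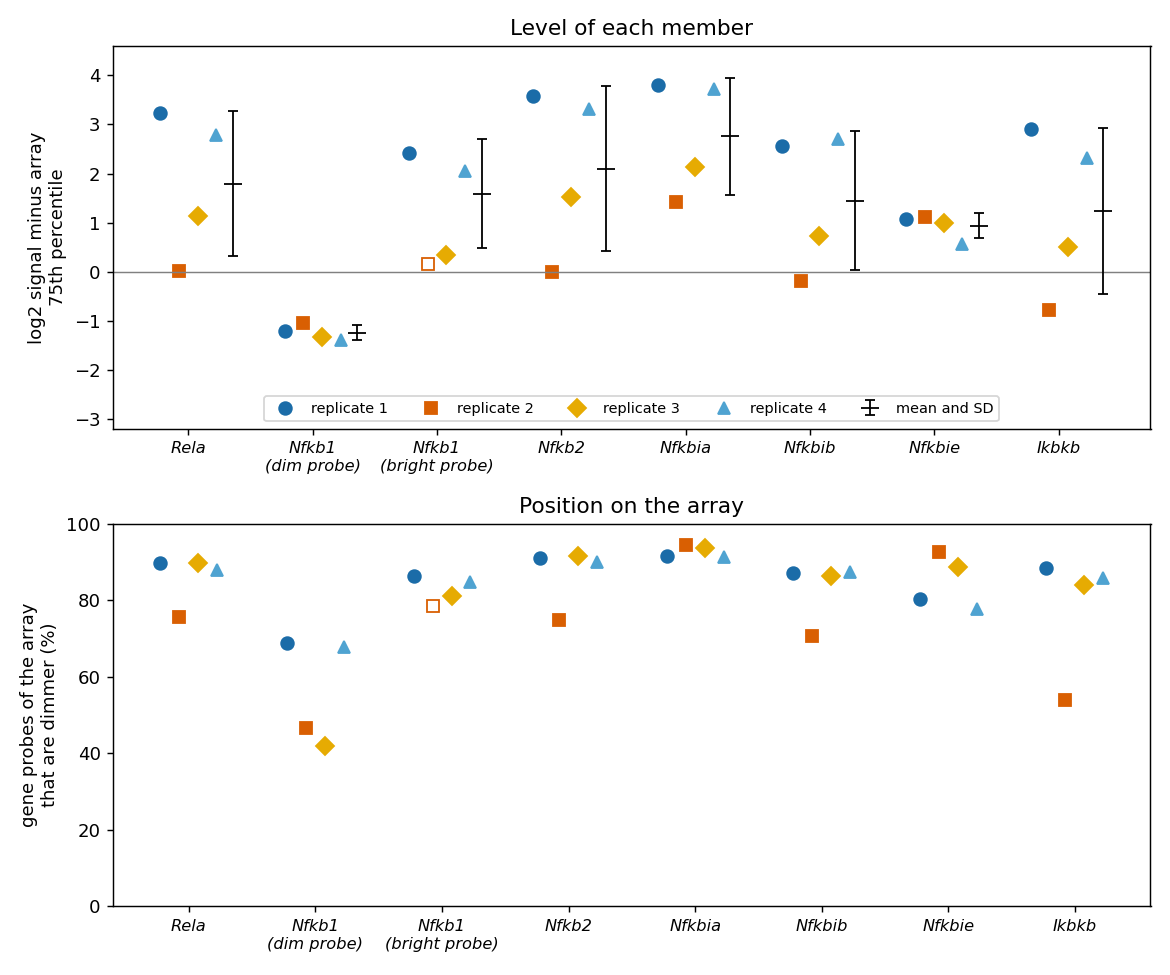
Upper panel: level of each probe (log2 processed signal minus the 75th percentile of the array) on the 4 arrays, with the mean and SD over 4 arrays, or over replicates 1, 3 and 4 for the bright Nfkb1 probe, whose outlier spot is open. Lower panel: share of gene probes on the same array that were dimmer (%); Nfkbia lies between 91.3% and 94.5%, and Ikbkb is at 53.9% on replicate 2.

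Across the members, 5 of 7 had a higher level on both replicates 1 and 4 than on either of replicates 2 and 3, where 87.8% of the 6935 genes whose own probe was detected on every array did, so most genes shared this order on that scale. The exceptions were Nfkb1, by its dim probe, and Nfkbie. With outlier spots kept, the brighter Nfkb1 probe stood for the gene, and 6 of 7 members had this order, against 87.7% of genes. The order was not kept on each other scale. Relative to the 75th percentile of probes well above background on all arrays, 0 of 7 members were higher on replicates 1 and 4, against 17.8% of genes, and 5 of 7 were lower there, against 46.2%. On that scale Nfkbia stood at -0.43 and -0.48 on replicates 1 and 4 and at 0.44 and 0.25 on replicates 2 and 3. When the arrays were instead set on their 3 brightest spike-ins, 0 of 7 members were higher on replicates 1 and 4, against 1.70% of genes, and 2 of 7, Nfkb1 and Nfkbie, were lower there, against 31.0%. With quantile normalization 3 of 7, Nfkb1, Nfkbib and Ikbkb, were higher, against 54.8%. The same scaling had 2 of 7, Nfkbia and Nfkbie, lower there, against 11.4%. The member median of replicate 1 minus replicate 2 was 2.75 log2 units, against 2.99 over all genes detected. Its sign turned with the scale as well, to -0.50 for the members and -0.26 for all genes on detected probes, and to -1.06 and -0.82 on the spike-ins. On the first scale replicates 1 and 4 were closest, with a median absolute difference of 0.27 over the members and 0.20 over all genes detected. The differences of replicate 1 minus replicate 4 ran from -0.12 for Nfkbib to 0.59 for Ikbkb, with 0.07 for Nfkbia and 0.52 for Nfkbie.

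The spread of a member between replicates depended on how the arrays were scaled. Relative to the 75th percentile of all probes, the median SD was 1.41 log2 units for the members and 1.55 for all genes detected. Relative to the 75th percentile of probes well above background on all arrays, it was 0.29 for the members and 0.43 for all genes. The same change lowered the SD to 0.29 for Rela, 0.28 for Nfkb2, 0.26 for Nfkbib, 0.28 for Ikbkb and 0.47 for Nfkbia. It raised the SD to 1.75 for Nfkb1 and 1.80 for Nfkbie, and scaling on the 3 brightest spike-in probes gave 2.06 and 2.10. The small SDs of these genes, 0.16 and 0.26 on the first scale, were thus found on that scale and with normexp background correction (0.15 and 0.33), and not with quantile, detected-probe or spike-in scaling. That of Nfkb1 belonged to its dim probe. With outlier spots kept, its brighter probe stood for the gene, with an SD of 1.16. With quantile normalization the median SD was 1.08 for the members and 0.86 for all genes.

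**Figure D3:**
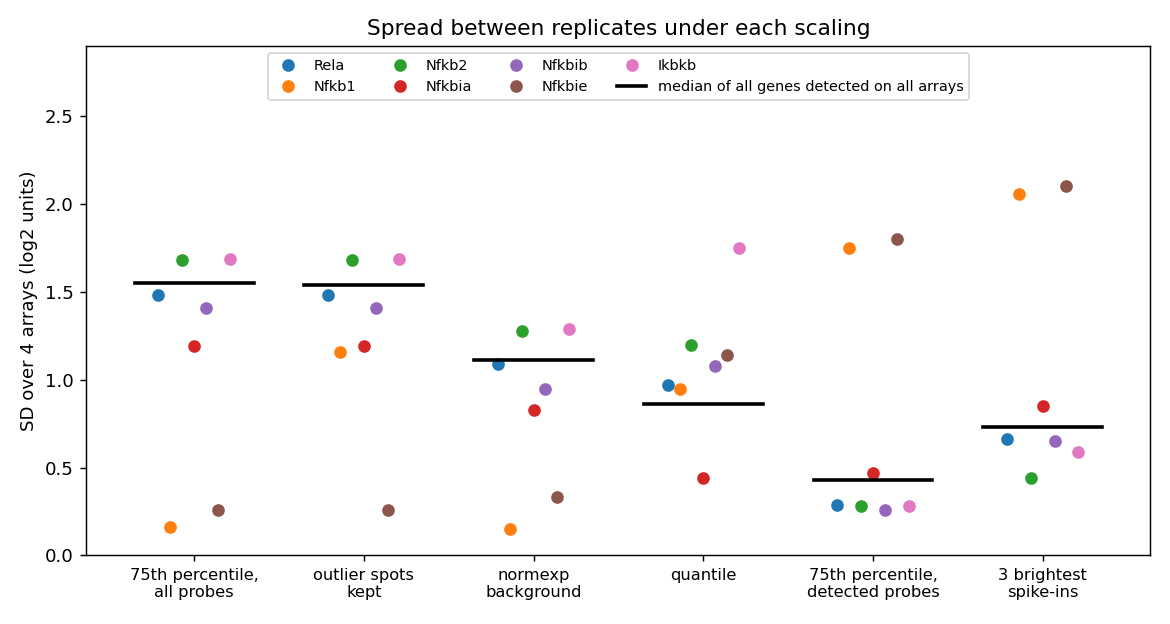
SD over the 4 arrays (log2 units) of each measured member under 6 treatments of the arrays, with the median over all genes detected on all arrays as a bar. Nfkb1 and Nfkbie have the lowest SDs on the first scale (0.16 and 0.26) and the highest under spike-in scaling (2.06 and 2.10). Nfkb1 is shown by its dim probe, except with outlier spots kept, where its brighter probe is shown (1.16).

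Other genes of the pathway were taken from 4 lists, whose counts stand beside the 42.6% of all named genes detected on all 4 arrays. Of 9 measured genes listed with the IkB family and IKK, including related kinases and other associated genes, 7 were detected on all 4 arrays. The exceptions Tbk1 and Nkiras1 were missed on replicate 4 alone. Chuk, the other catalytic subunit of IKK, had a level of 0.09 ± 1.68, and Ikbkg, its regulatory subunit, 1.53 ± 1.48 (SD, n = 4). Ikbke, a related kinase, had a level of 1.64 ± 1.44. For Chuk and Ikbkg only 1 of 2 probes was detected on all 4 arrays.

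Of 21 measured genes that carry or regulate signals from receptors to IKK and IkB, 18 were detected on all 4 arrays. Myd88, the adaptor of Toll-like and interleukin-1 receptors, stood at 5.56, 1.76, 3.18 and 5.39 on replicates 1 to 4, a mean level of 3.97 ± 1.83. The kinases Irak1 and Irak2, which act below Myd88, had levels of 1.47 ± 0.58 and 0.54 ± 0.72 (SD, n = 4). Irak4 and Birc3 were missed on replicate 4, and Traf1 on replicates 1 and 4.

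Of 8 measured feedback inhibitors of the pathway other than the IkB genes, 8 were detected on all 4 arrays. The list held 11 genes, and Tnfaip3, Tnip2 and Tnip3 were not measured. Tnip1, which restrains signalling through ubiquitin chains, had a level of 2.22 ± 1.77. The deubiquitinases Cyld and Otulin had levels of -0.83 ± 1.30 and 2.51 ± 1.61 (SD, n = 4). For Cyld 1 of 2 probes, and for Otulin 2 of 3, were detected on all 4 arrays.

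Of 25 measured target genes of NF-kB, 16 were detected on all 4 arrays, the lowest share of the 4 lists. Tnf and Il1b, whose products are early cytokines of the macrophage, had levels of 3.21 ± 1.63 and 3.28 ± 1.64 (SD, n = 4). Both lay at like positions on every array, between 93.5% and 94.3% for Tnf and between 94.0% and 94.6% for Il1b. Il6 was well above background on replicate 2 alone. On replicate 2, 24 of the 25 targets were detected, against 17 on replicate 1 and 16 on replicate 4. The same held for 35 of the 37 markers of other cell types, against 12 and 11. Of all named genes, 91.8% were detected on replicate 2, 52.5% on replicate 1 and 46.4% on replicate 4. Over the 4 lists together, each gene counted once, 49 of 63 measured genes were detected on all 4 arrays, against 42.6% of all genes, and 18 met the spike-in threshold on all of them, against 15.4%.

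**Figure D4:**
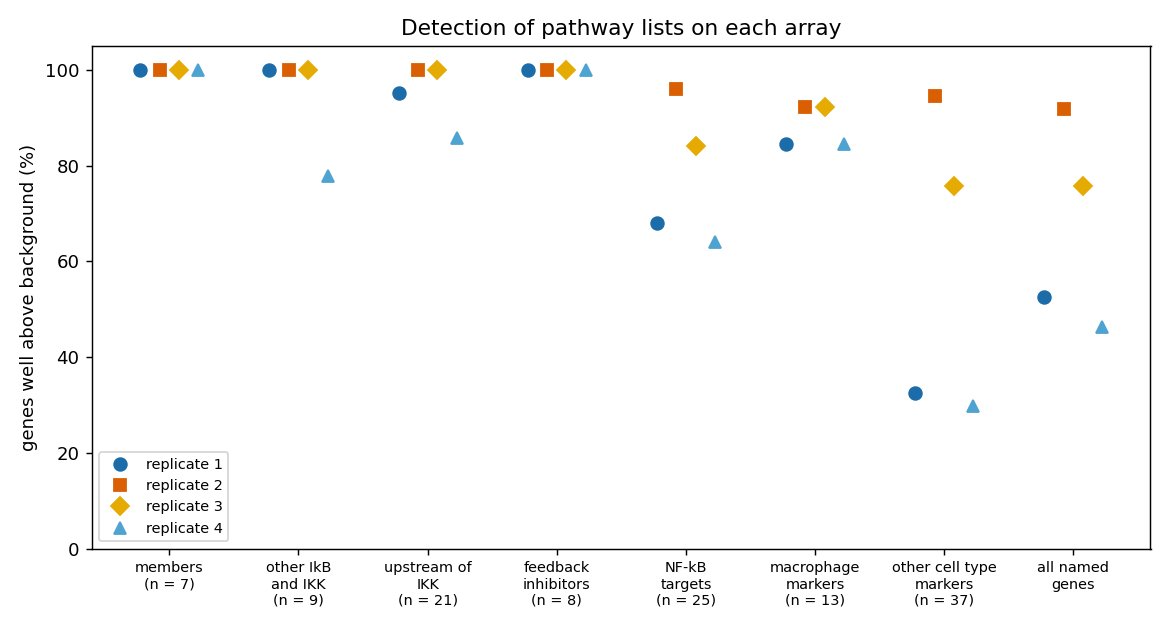
Share of measured genes (%) well above background on each of the 4 replicate arrays, for the 7 members, the 4 other pathway lists, 13 macrophage markers, 37 markers of other cell types and all named genes. All 7 members and all 8 feedback inhibitors are detected on every array, while markers of other cell types are near all named genes on replicates 2 and 3 and below them on replicates 1 and 4.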

How the data were processed

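RNA of 4 cultures was measured on 1-colour (Cy3) rat arrays, all on 1 slide. The deposited intensity of each spot came from Agilent Feature Extraction 11.0.1.1, per the file headers, with background subtracted and spatial trends corrected and no recorded scaling between arrays. The deposited value table equals the median spot signal on all 62976 spots of each array. Spots marked as outliers were left out, spots of a probe averaged as log2, 213 probes without a value on every array dropped, and the 75th percentile of each array subtracted. Probes were named through accession and RefSeq (GRCr8), 21109 of 45598 in all. A gene counts as detected if 1 of its probes is flagged, and its level is that of its brightest probe. Scalings were computed with limma 3.58.1 and Python 3.11.15, and the level step was tested on simulated data. Members and gene lists were chosen with earlier results of these data known. All members are named, with the first 3 measured genes of each other pathway list; exceptions to a count and cell type markers other than the first 3 macrophage ones were named after their values were seen. The number of arrays limits precision, and the SDs may hold technical spread.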

Additional observations from a re-analysis of the deposited data

How the results depend on the processing

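The count of 7 of 7 members well above background on all 4 arrays was also 7 with the scanner's other detection flag. That flag passed more of the other pathway genes. Requiring every probe of a gene, using replicates 1 and 4 alone and leaving out each replicate gave 7 as well. These alternatives could not lower the count, because each member had 1 kept probe and passed on every array. When the signal had to exceed the dimmest spike-in by 3 SD, 2 members passed, and the count of other pathway genes was 18 in place of 49. The count of other pathway genes was 55 with the other flag, 40 with every probe required and 49 to 54 without each replicate. Every member's level moved by more than its SD when the arrays were scaled on detected probes or on the 3 brightest spike-ins. Both scalings set another zero. Every level moved by less than its SD in each alternative that left out a replicate. With 4 arrays a mean cannot move further than that, so this outcome was fixed and does not bear on stability. With normexp correction and with quantile normalization, 2 of 7 levels moved by more than their SD. No paired analysis was possible because the arrays form 1 group. The SD of Nfkb1 was 0.10 without replicate 2 and that of Nfkbie 0.06 without replicate 4; no other member's SD moved by over 1.5 times without a replicate. The order of the arrays was tried under each scaling after seeing the data. It was found for 5 of 7 members with normexp correction and for 0 on detected probes or spike-ins. With outlier spots kept it was found for 6, now including Nfkb1 by its brighter probe. With quantile normalization it was found for 3, namely Nfkb1, Nfkbib and Ikbkb, while Nfkbia and Nfkbie had the reverse order. Of these 3, Nfkb1 lacked it on the first scale by its dim probe. Signal limits the dim probe of Nfkb1 on replicates 2 and 3 and Ikbkb on replicate 2, which read under the dimmest spike-in, and 5 members on replicate 2 and 3 on replicate 3 missed the threshold set by it.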
